A study of Homo sapiens with 16 samples.

Results

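The comparison described here sets cultures labelled HepG2 after 24 h with cinobufagin against untreated HepG2 cultures, and rests on 4 of the series' 16 libraries. HepG2 is a human line derived from a liver tumour. The members were taken by the titles of the libraries: 3 libraries treated at 5 µmol/L for 24 h, numbered 1 to 3, and the 1 untreated library, numbered 1. The other libraries are 3 of HepG2 at the same dose for 12 h and 9 of Huh-7, another human liver tumour line, with 3 each at 0, 12 and 24 h. The labels give no vehicle for the untreated cultures. They speak of triplicate without stating that each replicate was its own culture, so the p-values rest on a spread among libraries that may be purely technical. The spread of untreated HepG2 is unknown, because it has 1 library. In every test it was assumed to vary like the other groups.

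Cinobufagin is a cardiotonic steroid of toad venom. It binds the Na,K-ATPase, the pump that moves sodium out of and potassium into the cell, from its outer side and stops it. When the pump is blocked, sodium accumulates, potassium is lost and calcium can rise through sodium-calcium exchange. In human tumour lines such steroids are known to switch on early response genes, to change the cell's volume control and to slow protein synthesis.

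The 3 treated libraries held 10328097, 10457853 and 10440528 expected counts, against 9872791 in the untreated library, within the 9543048 to 10457853 of all 16. Treated replicate 1 stood apart from its group. Its chi-square per degree of freedom was 2.8 and 3.51 against replicates 2 and 3, which gave 1.4 against each other. The libraries lacked the markers that the liver label calls for. Of 16 hepatocyte markers, 10 were listed in any library and none reached 10 CPM, the usual scale of counts divided by the library total, in the 4 libraries. Alpha-fetoprotein (AFP) and apolipoprotein A-I (APOA1), by which HepG2 is usually known, were at 0 counts in all 4. The summed level of the hepatocyte markers was 7.46 to 10.6 CPM at 24 h, against 11.2 CPM untreated. Placental markers, with 13 of 14 listed, summed to 4990.5 to 5574 CPM at 24 h and 6511 CPM untreated, nearly all of it from placental alkaline phosphatase (ALPP) and intestinal alkaline phosphatase (ALPI), with CGB3 and CSH1 at 0. Markers of blood, vessel, stromal, bile duct and nerve cells, with 20 of 22 listed, summed to 541 to 580.4 CPM at 24 h and 1453 CPM untreated, mostly keratins KRT7 and KRT19. These sums are in plain CPM, without the scaling to a common typical gene (TMM) used for gene levels below. The TMM factors were 1.17 for the untreated library and 0.967 to 0.982 at 24 h. Division by them lowers the untreated sums and raises those at 24 h, so small differences between the sums depend on the scaling. In bulk RNA, fewer cells of a type and less RNA per cell cannot be told apart.

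At 24 h, 4956 of 13633 tested genes differed from the untreated library by at least 2-fold with an adjusted p under 0.05, which is 36.4% of those tested. Of these, 1918 genes (14.1%) were higher and 3038 (22.3%) were lower. A change of at least 4-fold was seen for 357 higher and 1415 lower genes, and one of at least 8-fold for 117 and 629. These shares are the background for the main counts of every gene group below, beside a median log2 fold change of −0.01 over all tested genes. Group counts given under another scaling are to be read against the all-gene counts of that scaling, given below. Adjusted p-values are those of the quasi-likelihood test in edgeR, adjusted over all tested genes by Benjamini and Hochberg's method, and a gene is said to have risen or fallen only where it passed both thresholds. Gene levels are CPM after TMM scaling, which sets the libraries to a common typical gene, so a change shared by all RNA cannot be seen. The split depended on that scaling. The genes called were 1514 higher and 3392 lower after upper-quartile scaling and 1199 and 3764 with the plain library size. After division by the library's median they were 2592 and 2563. These scalings moved the median of all genes by −0.14, −0.27 and 0.17 on the log2 scale. With limma on log2(FPKM + 1), another test on another measure, 826 were higher and 2709 lower, and the median moved by −0.16. Genes near 2-fold moved across the threshold with the scaling. With the plain library size the calls of ATP2A2, CLK1, CLK4, DNAJB9, DNAJC3, EGFR, ERRFI1, H2AC18, MARS2, MYC, PSME3, SLC7A5 and TSC1 were lost, as they were with limma. After division by the median those of AARS1, GDF15, HNRNPL, KLF2, KRT7, RPS4X, SLC7A11, SLFN5, STK39 and TXNIP were lost.

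**Figure D1:**
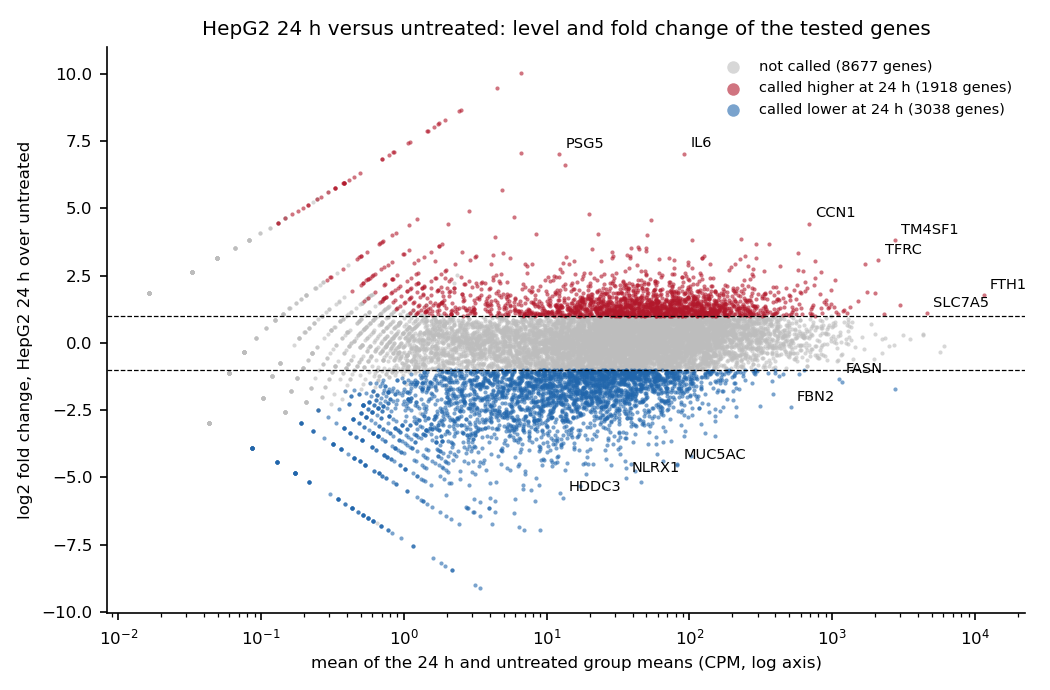
Each point is 1 of 13633 tested genes; the horizontal log axis gives the mean of the HepG2 24 h and untreated levels in CPM and the vertical axis the log2 fold change of HepG2 24 h over untreated. Dashed lines mark 2-fold changes; 1918 red genes were called higher and 3038 blue genes lower, and the abundant genes on the right lie mostly between the lines or above them.

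The called genes were not spread evenly over levels. Among genes under 1 CPM, 22.9% were called lower and 6.92% higher, and among those at 1 to 10 CPM 35.9% and 9.99%. The share called lower was 21.4% at 10 to 100 CPM, 5.74% at 100 to 1000 CPM and 4.11% above 1000 CPM, while the share called higher was 14.7%, 21.6% and 24.7% in the same bins. Gene length, as the untreated library's table gives it, moved with the calls as well. Of genes of 1 to 2 kb, 31.25% were called lower and 11.3% higher, whereas of genes over 5 kb 15.6% were called lower and 17.5% higher. The shortest genes, under 1 kb, broke this order, with 23.2% called lower and 10.3% higher. The median length was 3513 bases for higher genes, 2618 bases for lower genes and 3068 bases for all tested genes. The part of level and length in the calls was not tested.

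The pump that cinobufagin blocks was partly higher at the RNA level. Of 8 tested Na,K-ATPase subunit genes, 3 rose and 1 fell (2 and 2 with the plain library size), and the median log2 fold change was 0.04, with a sign that turned between −0.23 with the plain library size and 0.24 after median division. The β1 subunit ATP1B1, which the pump needs to reach the cell surface, had 984, 942 and 925 CPM in the 3 treated libraries, against 264 CPM untreated (log2 fold change 1.85 ± 0.05 SE, adjusted p = 3.62e-24). The β3 subunit ATP1B3 had 1423, 1312 and 1298 CPM, against 451 CPM (log2 fold change 1.58 ± 0.05 SE, adjusted p = 6.87e-23). For both β subunits every treated library lay above the untreated one, and their calls held under every alternative. FXYD3, a small regulator of the pump, fell to 0.427 ± 0.149 CPM at 24 h (SD, n = 3), against 1.81 CPM untreated.

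Of 22 other ion transport genes 5 rose and 4 fell (22.7% and 18.2%, against 14.1% and 22.3% over all tested genes), and the counts were 4 and 6 with the plain library size and 7 and 3 after median division. The plasma membrane calcium pump ATP2B1 rose to 224 ± 16.7 CPM at 24 h, against 75.1 CPM untreated, while its relative ATP2B4 fell to 22.8 ± 1.70 CPM, against 232 CPM. The sarcoplasmic and endoplasmic reticulum calcium pump ATP2A2 rose 2.21-fold (725 ± 25.5 CPM against 329 CPM). Genes of the response to osmotic stress leaned upward: 8 of 15 rose and 1 fell, with a median log2 fold change of 1.13. The kinase gene SGK1, which controls sodium and potassium transport, had 1062, 1028 and 1025 CPM, against 104 CPM untreated (log2 fold change 3.32 ± 0.06 SE, adjusted p = 5.42e-29). The amino acid transporter SLC38A2 had 3122, 2926 and 2928 CPM, against 390.0 CPM (log2 fold change 2.94 ± 0.06 SE, adjusted p = 5.61e-28). The 3 treated libraries lay close together for both, far above the untreated one. The taurine transporter SLC6A6, the myo-inositol transporter SLC5A3 and the kinase OXSR1 rose 5.19-fold, 2.88-fold and 3.14-fold. STK39, a kinase related to OXSR1, fell to 4.57 ± 0.859 CPM at 24 h, against 9.94 CPM untreated. Its call was lost without replicate 2 (log2 fold change −0.98).

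Among genes averaging 10 CPM or more over both groups, whose treated libraries all lay on one side of the untreated one, the 12 highest fold changes ran from 12.9-fold upward. Interleukin 6 (IL6), a secreted inflammatory cytokine, led them with 180.4, 187 and 179.8 CPM, against 1.38 CPM untreated (log2 fold change 7.03 ± 0.14 SE, adjusted p = 1.86e-28). The pregnancy-specific glycoprotein genes PSG5 and PSG4, which the placenta secretes, had 25.6, 23.4 and 23.6 CPM and 25.5, 26.4 and 27.4 CPM at 24 h. In the untreated library they had 2 and 3 counts, so their ratios of 140.0 and 102 carry counting intervals of 38.6 to 1158 and 34.8 to 496. The PSG genes are near-copies of each other, and the division of reads among them is uncertain. NKD2, an antagonist of Wnt signalling, had 33.1, 38.6 and 43.3 CPM, against 1.38 CPM untreated. DUSP4, a phosphatase that turns off MAP kinases, had 99.6, 105 and 104 CPM, against 4.32 CPM. CCN1, a secreted matrix protein and YAP target, had 1291, 1291 and 1332 CPM, against 60.5 CPM (log2 fold change 4.43 ± 0.06 SE, adjusted p = 1.04e-32). GPNMB, a membrane glycoprotein of lysosomes and melanosomes, had 45.4, 41.3 and 43.4 CPM, against 2.59 CPM (log2 fold change 4.06 ± 0.18 SE, adjusted p = 6.81e-20). The remaining 5 were SERTAD4, ST3GAL1, which adds sialic acid to glycans, the Golgi protein gene GOLGA4, the tetraspanin-like TM4SF1 and the polyamine transporter ATP13A3. They rose 15.9-fold, 14.4-fold, 14.2-fold, 14-fold and 12.9-fold.

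**Figure D2:**
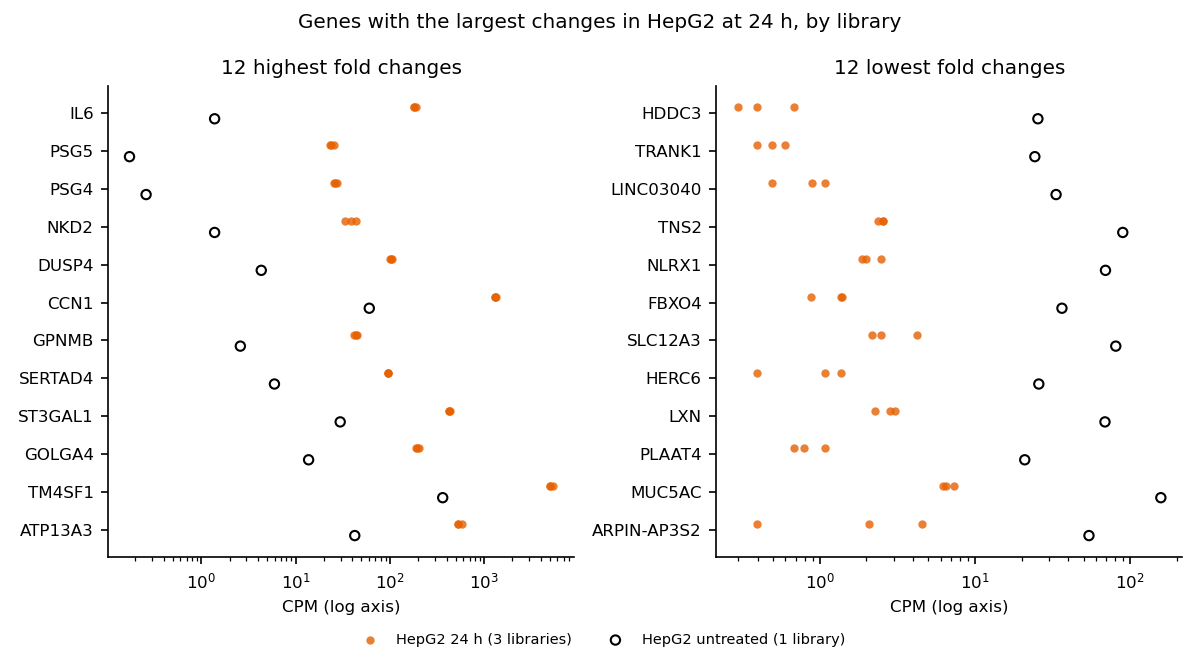
Each row is a gene and the log axes give CPM; filled points are the 3 HepG2 24 h libraries and open circles the 1 untreated library. In the left panel, the 12 highest fold changes, and in the right panel, the 12 lowest, no treated library overlaps the untreated one, and ARPIN-AP3S2 has the widest spread among the treated libraries.

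In absolute terms the largest gain belonged to FTH1, the heavy chain of the iron store ferritin. It had 16616, 18567 and 18251 CPM, against 5172 CPM untreated (log2 fold change 1.78 ± 0.05 SE, adjusted p = 5.47e-24). Transferrin receptor (TFRC), which takes iron into the cell, had 3913, 3706 and 3686 CPM, against 444 CPM (log2 fold change 3.08 ± 0.06 SE, adjusted p = 6.30e-29). The 2 chains of the large neutral amino acid exchanger also rose, the heavy chain SLC3A2 to 2745 ± 85.3 CPM at 24 h, against 732 CPM untreated, and the light chain SLC7A5 to 6280.5 ± 460.3 CPM, against 2889 CPM. Replicate 1 was the lowest of the 3 treated libraries for SLC7A5. TM4SF1, γ-actin (ACTG1) and α-tubulin 1B (TUBA1B) gained as well, reaching 5109 ± 212, 4323 ± 150.3 and 3144 ± 109 CPM at 24 h, against 364, 1615 and 868 CPM untreated. FTH1, ACTG1 and TUBA1B have paralogs or processed copies that can share reads with them.

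Immediate early genes, which signalling pathways switch on without new protein synthesis, were higher at 24 h in 20 of 36 cases and lower in 1, with a median log2 fold change of 1.20. DUSP1, a MAP kinase phosphatase, had 513, 523 and 552 CPM, against 58.7 CPM untreated (log2 fold change 3.17 ± 0.07 SE, adjusted p = 2.14e-27). The AP-1 subunit gene JUN had 70.0, 75.1 and 81 CPM, against 10.1 CPM (log2 fold change 2.90 ± 0.13 SE, adjusted p = 8.75e-20), and its partner FOSL1 had 27.1, 31.9 and 33 CPM, against 5.53 CPM. MAFF, ATF3 and PPP1R15A, which code for 2 leucine zipper factors and a phosphatase subunit of the stress response, rose 8.88-fold, 2.99-fold and 2.68-fold. MYC rose only to 447 ± 24.5 CPM at 24 h, against 220.4 CPM untreated, and its call was lost without replicate 3 (log2 fold change 0.98). EGR1, a classical member, did not pass the test, at 3.06, 4.62 and 3.96 CPM in the treated libraries and 3.80 CPM in the untreated one. KLF2 was the 1 lower member (1.94 ± 0.642 CPM against 3.98 CPM), and its call was lost without replicate 1 or replicate 2 (log2 fold changes −0.94 and −0.87).

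Promoters of 4 genes are shown because they carry recognised letters of factors discussed here and because their genes moved differently: DUSP1 and GPNMB rose, TRANK1 fell, and EGR1 was back near its untreated level. They are RefSeq sequences on GRCh38.p14, from 250 bases before to 50 bases after the start of the gene, 5′ to 3′ on the gene's strand, with matches in capitals. The DUSP1 promoter lies at chr5:172771146-172771445 on the minus strand and holds a CRE match from −125 to −118, counted from the start, and an E-box. The GPNMB promoter lies at chr7:23246525-23246824 on the plus strand and holds an AP-1 match from −134 to −128. That of TRANK1 lies at chr3:36945005-36945304 on the minus strand with an E-box from −41 to −36. That of EGR1 lies at chr5:138465229-138465528 on the plus strand with 2 CArG boxes, the first from −105 to −96.
DUSP1: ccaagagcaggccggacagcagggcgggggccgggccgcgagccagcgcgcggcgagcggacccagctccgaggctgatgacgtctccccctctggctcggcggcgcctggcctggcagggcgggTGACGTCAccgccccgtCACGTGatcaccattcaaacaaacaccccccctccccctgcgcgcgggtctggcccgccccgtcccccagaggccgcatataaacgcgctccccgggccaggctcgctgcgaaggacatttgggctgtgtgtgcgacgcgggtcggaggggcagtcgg
GPNMB: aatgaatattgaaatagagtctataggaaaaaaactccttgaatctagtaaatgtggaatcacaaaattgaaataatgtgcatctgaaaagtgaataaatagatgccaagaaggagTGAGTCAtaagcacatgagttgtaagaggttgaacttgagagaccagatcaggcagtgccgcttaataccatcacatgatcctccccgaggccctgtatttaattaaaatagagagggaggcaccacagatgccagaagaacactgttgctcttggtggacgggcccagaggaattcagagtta
TRANK1: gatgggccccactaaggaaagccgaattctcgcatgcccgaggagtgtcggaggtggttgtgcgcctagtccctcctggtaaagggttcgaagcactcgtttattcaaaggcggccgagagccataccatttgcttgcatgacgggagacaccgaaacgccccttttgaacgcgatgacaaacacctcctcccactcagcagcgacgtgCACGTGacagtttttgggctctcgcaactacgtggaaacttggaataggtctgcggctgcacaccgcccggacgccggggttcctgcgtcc
EGR1: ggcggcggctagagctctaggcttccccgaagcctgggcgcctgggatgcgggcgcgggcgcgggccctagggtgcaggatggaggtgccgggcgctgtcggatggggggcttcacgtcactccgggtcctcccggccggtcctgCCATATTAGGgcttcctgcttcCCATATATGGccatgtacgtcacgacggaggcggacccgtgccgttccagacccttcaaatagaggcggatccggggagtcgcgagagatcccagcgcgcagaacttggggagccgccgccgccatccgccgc

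The motifs searched on both strands were AP-1 (TGANTCA), CRE (TGACGTCA, the site of CREB and ATF factors), the E-box CACGTG (read by MYC and MiT/TFE factors), the heat shock element (GAA units in alternating orientation), the CArG box of SRF and the NF-kB site. The NF-kB site was searched in 2 forms that can overlap, and no match of one motif contains a match of a different one. RefSeq promoters were matched to 1547 higher genes, 2433 lower genes and 11036 tested genes, out of 27305 in the table. The E-box was in 13.3% of promoters of higher genes, 8.63% of lower genes, 10.1% of tested genes and 7.43% of all promoters. CRE was in 4.59%, 2.38%, 3.20% and 1.98% of the same sets, AP-1 in 4.20%, 4.89%, 4.76% and 7.76%, and the CArG box in 1.03%, 1.07%, 1.01% and 1.29%. The NF-kB site was in 13.6%, 15.5%, 14.8% and 11.9%, and the heat shock element in 0.323%, 0.164%, 0.299% and 0.487%. A match describes letters in the window and is neither a site in use nor a cause.

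NF-κB targets and cytokines were higher in 14 of 26 cases and lower in 3 (9 and 3 with the plain library size), with a median of 1.17. Beside IL6 the inhibitor TNFAIP3, which shuts off NF-κB signalling, had 152, 141 and 159 CPM, against 27.5 CPM untreated (log2 fold change 2.46 ± 0.08 SE, adjusted p = 8.87e-23). NFKBIB, another inhibitor, rose 6.43-fold, the apoptosis inhibitor BIRC3 3.78-fold and the adhesion molecule ICAM1 3.48-fold. TRAF1, an adaptor of TNF receptors, went the other way and fell to 0.23 ± 0.113 CPM at 24 h, against 5.01 CPM untreated, as did the cytokine LIF (1.68 ± 0.351 CPM against 7.17 CPM). Targets of SRF and YAP, the factors of the actin skeleton and of cell stretch, were higher in 10 of 20 cases and lower in 2 (median 1.01). The matrix protein THBS1 rose 9.46-fold, the YAP regulators AMOTL2 and LATS2 6.50-fold and 5.56-fold, and SRF itself 2.81-fold. Smooth muscle actin ACTA2 and the receptor AXL fell to 5.75 ± 0.635 and 62.6 ± 2.13 CPM at 24 h, against 25.8 and 154 CPM untreated. In the EGF receptor family 5 of 13 rose and none fell (median 1.21), though 3 rose and 2 fell with the plain library size. EGFR had 789.5, 768 and 783 CPM, against 329 CPM untreated (log2 fold change 1.25 ± 0.06 SE, adjusted p = 9.17e-19), and its feedback inhibitor ERRFI1 rose 2.31-fold.

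Interferon response genes showed the reverse. None of 26 rose and 20 fell, with a median log2 fold change of −1.78. OASL, of the oligoadenylate synthetase family that senses viral RNA, had 15.6, 14.9 and 14.9 CPM, against 167 CPM untreated (log2 fold change −3.47 ± 0.08 SE, adjusted p = 4.21e-27). OAS1 had 10.9, 9.24 and 8.52 CPM, against 95.3 CPM (log2 fold change −3.31 ± 0.10 SE, adjusted p = 4.07e-24). The RNA sensor IFIH1 had 3.45, 3.14 and 2.87 CPM, against 30.2 CPM (log2 fold change −3.26 ± 0.17 SE, adjusted p = 1.61e-17). All 3 treated libraries lay far below the untreated one in each. IRF9, the DNA-binding subunit of the interferon-activated ISGF3 complex, fell to 11 ± 0.357 CPM, against 68.2 CPM, and IFIT1, which binds foreign RNA, to 15.7 ± 2.42 CPM, against 87.5 CPM. The 3 catalytic subunits of the immunoproteasome, PSMB8, PSMB9 and PSMB10, are interferon-induced too, and they fell to 24.3 ± 1.79, 3.78 ± 0.215 and 6.90 ± 1.43 CPM at 24 h, against 128, 18 and 25.1 CPM untreated. Of all 41 proteasome genes 6 fell and 1 rose, the regulator PSME3 (2.20-fold).

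**Figure D3:**
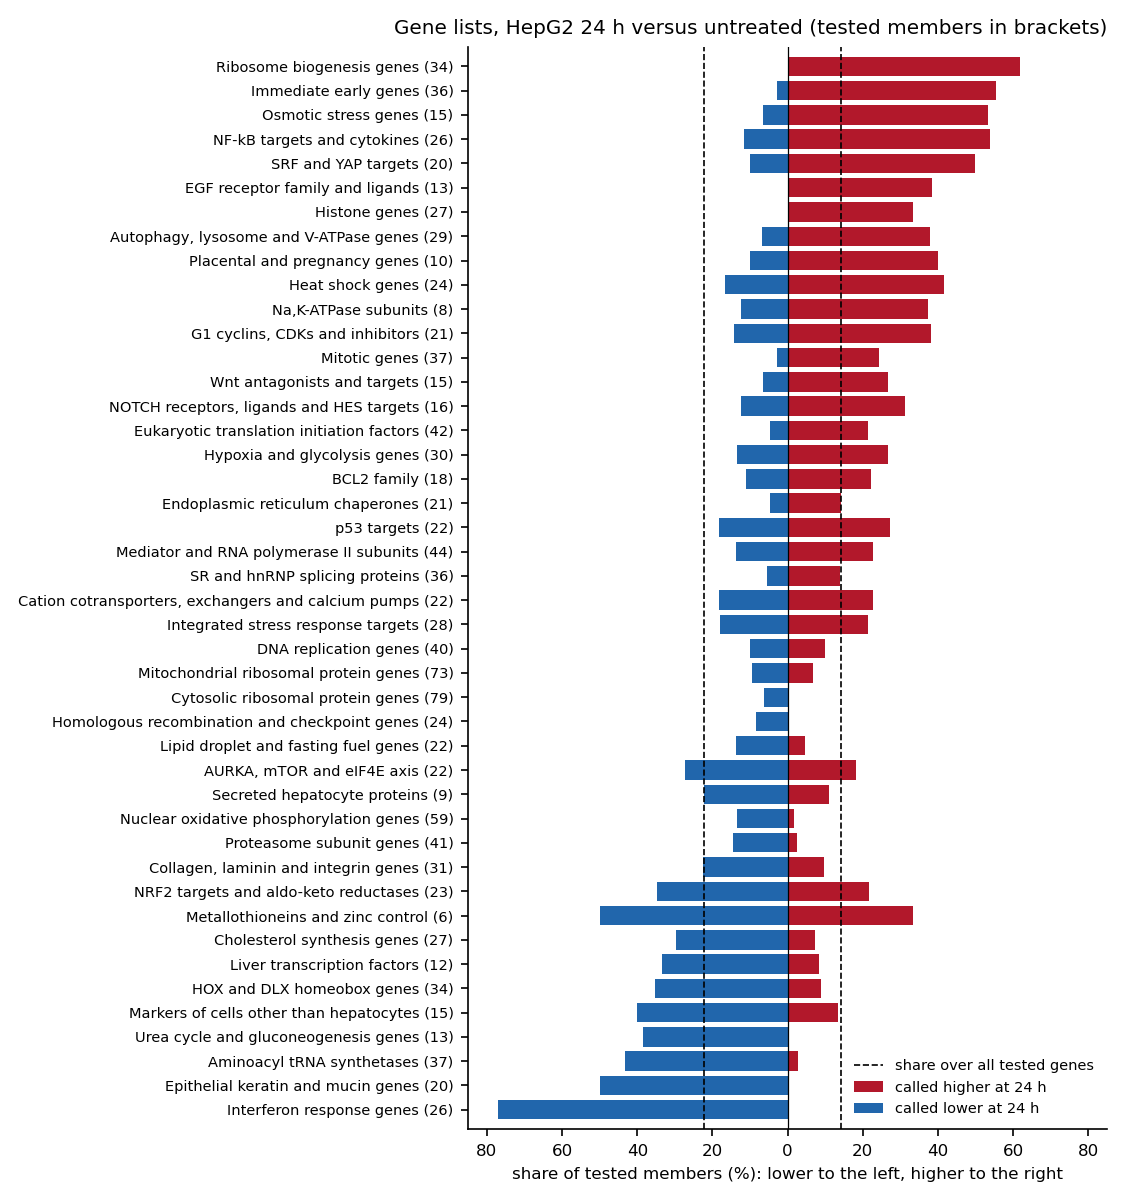
Each row is 1 of 44 gene lists with its number of tested members in brackets; red bars to the right give the percent of members called higher in HepG2 at 24 h and blue bars to the left the percent called lower. Dashed lines mark the shares over all tested genes, 14.1% and 22.3%; ribosome biogenesis and immediate early genes lie highest and interferon response genes lowest.

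Genes for making and using ribosomes did not move as 1 body. Of 34 ribosome biogenesis genes, 21 rose and none fell (median 1.12), and under the other scalings 13 to 25 rose and none fell. The snoRNP core proteins NOP58 and NOP56, which guide methylation of ribosomal RNA, rose 4.54-fold and 3.50-fold. Dyskerin (DKC1), of the pseudouridylation complex, had 344, 347 and 339 CPM, against 84 CPM untreated (log2 fold change 2.03 ± 0.07 SE, adjusted p = 3.69e-23). The nucleolar helicase DDX21 had 637, 605 and 589 CPM, against 176 CPM (log2 fold change 1.79 ± 0.05 SE, adjusted p = 4.26e-24). Cytosolic ribosomal protein genes gave 5 lower calls and no higher one of 79, with a median whose sign turned with the scaling. RPL12 was among them, at 254 ± 6.25 CPM at 24 h and 596 CPM untreated. RPS4X lay at the threshold, with 266 ± 1.75 CPM at 24 h and 534 CPM untreated, and its call was lost without replicate 3. Of 73 mitochondrial ribosomal protein genes 5 rose, with MRPS6 first (3.38-fold), and 7 fell, with MRPL24 first (11.1 ± 0.677 CPM against 93.9 CPM). These counts were 5 and 11 with the plain library size and 7 and 4 after median division.

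Aminoacyl tRNA synthetases, which charge tRNAs with amino acids, fell in 16 of 37 cases and rose in 1 (median −0.68). The glutamine enzyme QARS1 had 35.2, 34.6 and 40.4 CPM, against 195 CPM untreated (log2 fold change −2.41 ± 0.06 SE, adjusted p = 2.19e-25). AARS1, for alanine, fell by a smaller factor but lost more transcripts, with 359.7, 355 and 369 CPM, against 813 CPM. The 1 higher member was the mitochondrial methionine enzyme MARS2 (2.19-fold). Among 42 translation initiation factors 9 rose and 2 fell (21.4% and 4.76%, against 14.1% and 22.3% over all tested genes). With the plain library size 5 rose and 3 fell. EIF1, which helps to choose the start codon, rose to 1435 ± 84.6 CPM, against 522 CPM, and EIF2B3, a subunit of the factor that reloads eIF2, fell to 4.11 ± 0.461 CPM, against 28.1 CPM.

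For the kinases AURKA and mTOR and the cap-binding protein eIF4E, 4 of 22 genes of their axis rose and 6 fell (median −0.34), against 5 and 4 after median division. AURKA itself had 116, 104 and 105 CPM, against 90.0 CPM untreated (log2 fold change 0.27, not called). MTOR had 99.8, 103 and 102 CPM, against 148 CPM (−0.54, not called). EIF4E had 74.4, 79.8 and 72.3 CPM, against 38.4 CPM. At 0.98 on the log2 scale it lay just under the 2-fold threshold, and without replicate 3 it was just above it (1.01). RICTOR, of the second mTOR complex, rose 4.62-fold, and the eIF4E-binding protein EIF4EBP2 rose 2.45-fold. The mTOR complex subunit MLST8, the kinase AKT1 and the inhibitor TSC2 fell to 43.8 ± 1.60, 46.3 ± 3.58 and 48.4 ± 4.21 CPM at 24 h, against 111, 119.8 and 139 CPM untreated. The partner of TSC2, TSC1, rose 2.28-fold.

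Stress programmes gave divided results. Of 28 targets of the integrated stress response, 6 rose and 5 fell (4 and 7 with the plain library size), and the median of −0.08 turned its sign with the scaling. STC2, a secreted glycoprotein, rose to 74.6 ± 2.17 CPM at 24 h, against 19.6 CPM untreated. The apoptosis-linked factor DDIT3 fell to 15 ± 0.438 CPM, against 41.7 CPM, the pseudokinase TRIB3 to 70.0 ± 3.79 CPM, against 224 CPM, and the cystine transporter SLC7A11 to 31 ± 0.411 CPM, against 69.1 CPM. Endoplasmic reticulum chaperones were mostly not called, with 3 of 21 higher and 1 lower (0 and 2 with the plain library size). DNAJC3 and DNAJB9 were among the higher ones (2.40-fold and 2.29-fold), and PDIA4, a disulfide isomerase, was the lower one (75.2 ± 6.21 CPM against 181 CPM).

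Of 24 heat shock genes 10 rose and 4 fell (median 0.55). The constitutive chaperone HSPA8 had 457, 436 and 442 CPM, against 142 CPM untreated (log2 fold change 1.65 ± 0.05 SE, adjusted p = 3.61e-23). HSPA1A had 331, 365 and 406 CPM, against 120.3 CPM, and its near-copy HSPA1B had 299.5, 326 and 310.3 CPM, against 105 CPM, with an uncertain division of reads between them. The small heat shock gene HSPB1 had 151, 164 and 171 CPM, against 609.7 CPM (log2 fold change −1.91 ± 0.06 SE, adjusted p = 9.16e-23). NRF2 targets, the genes of the oxidant response, rose in 5 of 23 cases and fell in 8 (7 and 7 after median division). The gene of NRF2, NFE2L2, rose 2.67-fold and OSGIN1 5.03-fold, whereas AKR1C1, AKR1C2 and AKR1C3, similar aldo-keto reductases that can share reads, fell to 14.6 ± 1.59, 35.9 ± 1.74 and 46.8 ± 3.01 CPM at 24 h, against 87.3, 141 and 256 CPM untreated. The zinc-binding metallothionein MT2A fell to 30.8 ± 1.63 CPM, against 71.3 CPM, and the zinc importer SLC39A10 rose 3.95-fold. Of 22 p53 targets 6 rose, with the nuclease gene AEN first (197, 208 and 216 CPM against 35.5 CPM), and 4 fell, with FDXR first (1.38, 1.57 and 1.88 CPM against 23.5 CPM). In the BCL2 family the survival gene MCL1 and the death gene PMAIP1 both rose (2.45-fold and 3.22-fold), among 4 higher and 2 lower of 18 (3 and 3 with the plain library size).

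Of 21 G1 regulators 8 rose and 3 fell. The kinase CDK6 had 95.3, 88.8 and 90.3 CPM, against 7.95 CPM untreated (log2 fold change 3.52 ± 0.13 SE, adjusted p = 4.40e-22). Cyclin D1 (CCND1), its activator, had 240.0, 245 and 249 CPM, against 31.8 CPM (log2 fold change 2.94 ± 0.08 SE, adjusted p = 7.02e-25), and the phosphatase CDC25A rose 8.82-fold. The inhibitors CDKN1C and CDKN2C and the pocket protein RBL2 fell to 9.96 ± 0.393, 46.7 ± 2.98 and 16 ± 1.12 CPM at 24 h, against 28.5, 150.4 and 60.6 CPM untreated. Of 37 mitotic genes 9 rose and 1 fell (median 0.41). ASPM, a spindle pole protein, rose 5.50-fold, the cytokinesis protein ANLN 3.62-fold and CDK1 3.07-fold, while the phosphatase CDC25C fell to 9.11 ± 1.27 CPM, against 21.1 CPM. Replication genes gave 4 higher and 4 lower of 40 (8 and 3 after median division, 2 and 4 with the plain library size). FEN1, which trims Okazaki fragments, rose 3.02-fold, and the primase subunit PRIM1 fell to 8.65 ± 0.433 CPM, against 39.2 CPM. In homologous recombination, 2 of 24 fell, NBN and FANCD2, and none rose, whereas after median division none fell and 3 rose. Of 27 histone genes 9 rose and none fell (median 0.71), though 3 fell with the plain library size. H2BC12 had 669, 658 and 647 CPM, against 178 CPM (log2 fold change 1.88 ± 0.06 SE, adjusted p = 3.23e-23). H2AC18 and H2AC19 have identical deposited values, as do H4C14 and H4C15, so each pair is 1 measurement that these counts hold as 2 genes. H2AC18 was at 40.4 ± 0.534 CPM at 24 h and 17.1 CPM untreated. The RNA was selected by its poly(A) tail, which most replication-dependent histone transcripts lack.

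Cholesterol synthesis genes fell in 8 of 27 cases and rose in 2 (median −0.41). Mevalonate kinase (MVK), an early enzyme of the pathway, had 4.93, 4.13 and 4.85 CPM, against 29.7 CPM untreated (log2 fold change −2.68 ± 0.15 SE, adjusted p = 8.63e-17), and the next enzyme, PMVK, had 9.07, 8.06 and 8.22 CPM, against 43.6 CPM. HSD17B7 and TM7SF2, which act late in the pathway, fell 6.60-fold and 4.86-fold, whereas SC5D, which acts after them, rose 2.78-fold. Fatty acid synthase (FASN) had 567, 650.0 and 674 CPM, against 1607 CPM (log2 fold change −1.35 ± 0.05 SE, adjusted p = 7.75e-21), and PPARGC1A, a coactivator of mitochondrial genes, rose 3.69-fold. Among 30 hypoxia and glycolysis genes 8 rose and 4 fell (5 and 5 with the plain library size). The peptide hormone adrenomedullin (ADM) rose 8.57-fold, NDRG1 8.26-fold and the hypoxia factor EPAS1 6.32-fold. The phosphofructokinase genes PFKL and PFKM fell to 46.6 ± 2.19 and 59.5 ± 5.08 CPM at 24 h, against 184 and 139.8 CPM untreated. Of 59 nuclear oxidative phosphorylation genes 8 fell and 1 rose (13.6% and 1.69%, both below the 22.3% and 14.1% of all tested genes). With the plain library size 14 fell and 0 rose, and after median division 4 fell and 1 rose.

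Autophagy, lysosome and V-ATPase genes rose in 11 of 29 cases and fell in 2 (median 0.77). The proton pump subunit ATP6V1C1 had 172, 157 and 147 CPM, against 26.1 CPM untreated (log2 fold change 2.60 ± 0.09 SE, adjusted p = 4.31e-22). The lysosomal calcium channel MCOLN1 had 150.2, 170.2 and 172 CPM, against 31.9 CPM (log2 fold change 2.36 ± 0.10 SE, adjusted p = 3.36e-20). GABARAPL1, a protein of the autophagosome membrane, had 642, 605 and 607 CPM, against 145 CPM (log2 fold change 2.09 ± 0.05 SE, adjusted p = 1.52e-25). The kinase that starts autophagy, ULK1, went the other way, with 69.1, 80.2 and 81.6 CPM, against 267 CPM (log2 fold change −1.79 ± 0.06 SE, adjusted p = 1.59e-22). Of 44 Mediator and RNA polymerase II subunit genes 10 rose and 6 fell, against 4 and 7 with the plain library size. MED10, MED28 and MED13 rose 3.58-fold, 3.04-fold and 2.75-fold, and MED20 and MED16 fell 4.75-fold and 3.96-fold. Of 36 splicing protein genes 5 rose (0 with the plain library size), among them the kinases CLK1 and CLK4 (2.13-fold and 2.20-fold), and 2 fell, HNRNPD and HNRNPL (189.9 ± 2.23 CPM against 387 CPM).

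Lists of genes that mark a cell's lineage mostly held more lower than higher calls, as did all tested genes (22.3% lower and 14.1% higher). The placental list held 4 higher and 1 lower. Of 20 epithelial keratin and mucin genes 10 fell and none rose (median −1.10), and after median division 9 fell and 1 rose. The gel-forming mucin MUC5AC had 6.51, 7.27 and 6.24 CPM, against 157 CPM untreated (log2 fold change −4.56 ± 0.10 SE, adjusted p = 4.06e-27), and the tight junction gene CLDN7 had 3.85, 4.03 and 4.16 CPM, against 54.7 CPM (log2 fold change −3.77 ± 0.12 SE, adjusted p = 5.71e-23). KRT7 fell to 419 ± 14.4 CPM, against 848 CPM, and its call was lost without replicate 1 (−0.99). Beside this list, the summed plain CPM of the 25 epithelial markers was 3249 to 3489.5 at 24 h and 6938 untreated. KRT17 went the other way without a call, at a mean of 682 plain CPM at 24 h and 489 untreated. KRT14 and KRT20 were at 0 at 24 h but had only 3 and 2 counts untreated. Of 12 liver transcription factor genes 4 fell and 1 rose. The lower share of 33.3% lay beside 22.3% of all tested genes and 35.9% of those at 1 to 10 CPM. FOXA1 fell to 20.5 ± 2.08 CPM, against 70.0 CPM, and NR1H3, the oxysterol receptor LXRα, to 4.67 ± 0.97 CPM, against 30.2 CPM. HNF4A was near 0 in all 4 libraries, at 0, 0 and 0.099 CPM, against 0.605 CPM. Of 13 urea cycle and gluconeogenesis genes 5 fell and none rose (median −0.82), with argininosuccinate lyase (ASL) at 5.16 ± 1.06 CPM, against 42.2 CPM, and the mitochondrial kinase PCK2 at 24.7 ± 2.23 CPM, against 141 CPM. Of 9 secreted hepatocyte protein genes 2 fell (22.2%, near the share over all tested genes) and 1 rose. Ceruloplasmin (CP) fell to 16.4 ± 2.16 CPM, against 54.6 CPM, and APOE, with 0 counts untreated, reached 2.90 ± 1.02 CPM.

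Of 34 HOX and DLX homeobox genes, which set position along the body, 12 fell and 3 rose (median −0.63). DLX4 fell to 0.887 ± 0.168 CPM, against 8.21 CPM. HOXB9 rose to 9.50 ± 0.229 CPM, against 2 counts in the untreated library, a ratio of 55 with a counting interval of 15.1 to 456. Of 10 placental genes, 4 PSG genes rose and ALPI fell, with 596, 628 and 655 CPM, against 1708 CPM untreated (log2 fold change −1.45 ± 0.05 SE, adjusted p = 6.45e-23). Its near-copy ALPP was not called (4756 ± 314 CPM against 3825 CPM), and reads may be divided between them. Among collagen, laminin and integrin genes 7 of 31 fell and 3 rose. The lower share of 22.6% lay at the 22.3% of all tested genes, and the higher share was 9.68%, against 14.1%. Those that fell included COL1A1 (15.8 ± 2.74 CPM against 60.7 CPM) and ITGB4 (3.85 ± 0.717 CPM against 26.5 CPM), and those that rose included ITGAV (2.55-fold). Of 15 markers of cells other than hepatocytes, 2 rose, HBA1 and CD14, and 6 fell, among them the stromal genes PDGFRB (1.05 ± 0.395 CPM against 22.7 CPM) and DCN (13.6 ± 0.614 CPM against 53.5 CPM). Their part in the collagen calls was not tested. Wnt genes rose in 4 of 15 cases and fell in 1: the factor TBX3 rose 9.29-fold and the antagonist DKK1 8.67-fold, and the receptor-clearing ligase RNF43 fell to 2.83 ± 0.32 CPM, against 13.1 CPM. NOTCH genes rose in 5 of 16 cases and fell in 2, with NRARP, a feedback inhibitor, at 49.3 ± 4.68 CPM, against 8.47 CPM, and the target HEY2 at 1.61 ± 0.323 CPM, against 14.9 CPM.

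The 12 lowest fold changes under the same rule ran from 23.1-fold downward. HDDC3, a phosphohydrolase, had 0.296, 0.688 and 0.396 CPM, against 25.4 CPM untreated (log2 fold change −5.75 ± 0.23 SE, adjusted p = 1.18e-20). TRANK1 had 0.394, 0.491 and 0.594 CPM, against 24.3 CPM (log2 fold change −5.59 ± 0.24 SE, adjusted p = 7.01e-20). NLRX1, a mitochondrial regulator of innate immune signalling, had 1.97, 1.87 and 2.48 CPM, against 69.2 CPM (log2 fold change −5.03 ± 0.14 SE, adjusted p = 3.14e-25). All 3 were close to 0 in every treated library. TNS2, which links actin to focal adhesions, had 2.56, 2.36 and 2.58 CPM, against 89.4 CPM, and SLC12A3, a sodium-chloride cotransporter known from the kidney, had 2.47, 2.16 and 4.26 CPM, against 80.6 CPM. The ubiquitin ligase subunit FBXO4 fell 29.5-fold, the interferon-induced HERC6 26.7-fold, the carboxypeptidase inhibitor LXN 25.1-fold, PLAAT4 24.1-fold and the non-coding LINC03040 39.9-fold. The readthrough gene ARPIN-AP3S2 shares exons with both its neighbours and varied most, with 2.07, 0.393 and 4.56 CPM, against 54.2 CPM.

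Among called genes the largest losses in CPM began with an identifier that has no name in the sources used here, ID_103344718, with 1251, 1326 and 1302 CPM, against 4190.1 CPM untreated (log2 fold change −1.70 ± 0.05 SE, adjusted p = 4.55e-25). After it came ALPI, FASN and FBN2, a fibre protein of the matrix, and then AARS1, HSPB1, KRT7 and PTGS1, the prostaglandin synthase COX-1. FBN2 had 169, 162 and 158 CPM, against 858 CPM (log2 fold change −2.40 ± 0.05 SE, adjusted p = 1.86e-28). PTGS1 had 109, 94 and 102 CPM, against 520.1 CPM (log2 fold change −2.36 ± 0.06 SE, adjusted p = 2.67e-26). Among genes called higher, 39 had 0 counts in the untreated library. Against the limit of 3 counts that a count of 0 allows in that library, the readthrough RBM14-RBM4 was at least 50.7-fold higher, α-globin HBA1 at least 34.5-fold, the endotoxin receptor CD14 at least 19.3-fold, PLGLB2 at least 18.9-fold and PSG9 at least 15.1-fold. SMIM11 had 7.69, 2.95 and 0 CPM at 24 h, so 1 treated library was at 0 like the untreated one. The call of SMIM11 was lost without replicate 1 (adjusted p = 0.0763 by edgeR), and those of SMIM11, HBA1 and C4B_2 with DESeq2. Among genes called lower, 67 had 0 counts in all 3 treated libraries. Against 3 counts per library, OSBPL7, a lipid-binding protein, was at least 23.1-fold lower, C4B_2 at least 21.3-fold, the tRNA-processing gene ELAC1 and ZNG1F each at least 14.6-fold, SH3RF3 at least 13.1-fold and MEOX1 at least 12.3-fold. HBA1, PLGLB2, C4B_2 and ZNG1F have near-copies, so reads may have been divided differently among them. These limits cover counting error only.

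HepG2 at 24 h was also set against HepG2 at 12 h, with 3 libraries on each side and without the untreated one. Of 13633 genes, 1615 (11.8%) were called, 891 higher (6.54%) and 724 lower (5.31%). Both times share the untreated library as their baseline, so levels are given side by side. IL6 was at 1.38 CPM untreated, 302 ± 5.22 CPM at 12 h and 183 ± 4.26 CPM at 24 h. Of 36 immediate early genes, 11 were lower at 24 h than at 12 h and none was higher, with a median log2 fold change of −0.75 between the times. Of 28 integrated stress response targets, 10 were higher at 24 h than at 12 h and 1 was lower (median 0.49). THBS1 was at 24.2, 932 and 229 CPM at 0, 12 and 24 h, DKK1 at 12.6, 485 and 109 CPM, and PPP1R15A at 74.1, 639 and 198 CPM. EGR1 was at 3.80, 18.7 and 3.88 CPM (log2 fold change 24 h over 12 h −2.26 ± 0.14 SE, adjusted p = 4.47e-15). Its 12 h value alone stood out. The homeobox gene DLX2 and PHLDA1, which codes for a pleckstrin homology-like protein, were also highest at 12 h, and their 24 h levels lay below the untreated ones, with 3.98, 23.8 and 2.93 CPM and 8.38, 24.2 and 4.87 CPM. SELENBP1, CDK5 and the nuclear pore gene AAAS were lower at each later time, with SELENBP1 at 194, 56.4 and 10.6 CPM.

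Other genes were higher at 24 h than at 12 h. The mitochondrial adenylate kinase AK4 was at 19.9, 22.6 and 137 CPM at 0, 12 and 24 h (24 h over 12 h 2.60 ± 0.07 SE, adjusted p = 3.56e-25). STC2 was at 19.6, 13.3 and 74.6 CPM and PSG5 at 0.173, 3.94 and 24.2 CPM. These 3 were higher at 24 h than at either earlier time. Others were low at 12 h and partly back at 24 h. The mTOR inhibitor gene DDIT4 was at 626, 54 and 327 CPM, SLFN5, an interferon-induced gene, at 56.9, 1.83 and 25.4 CPM, and GRAMD4 at 27, 3.50 and 19.2 CPM. The NOTCH-pathway repressor HES7 was below the untreated level at 12 h and above it at 24 h, at 9.07, 4.09 and 26.2 CPM.

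**Figure D4:**
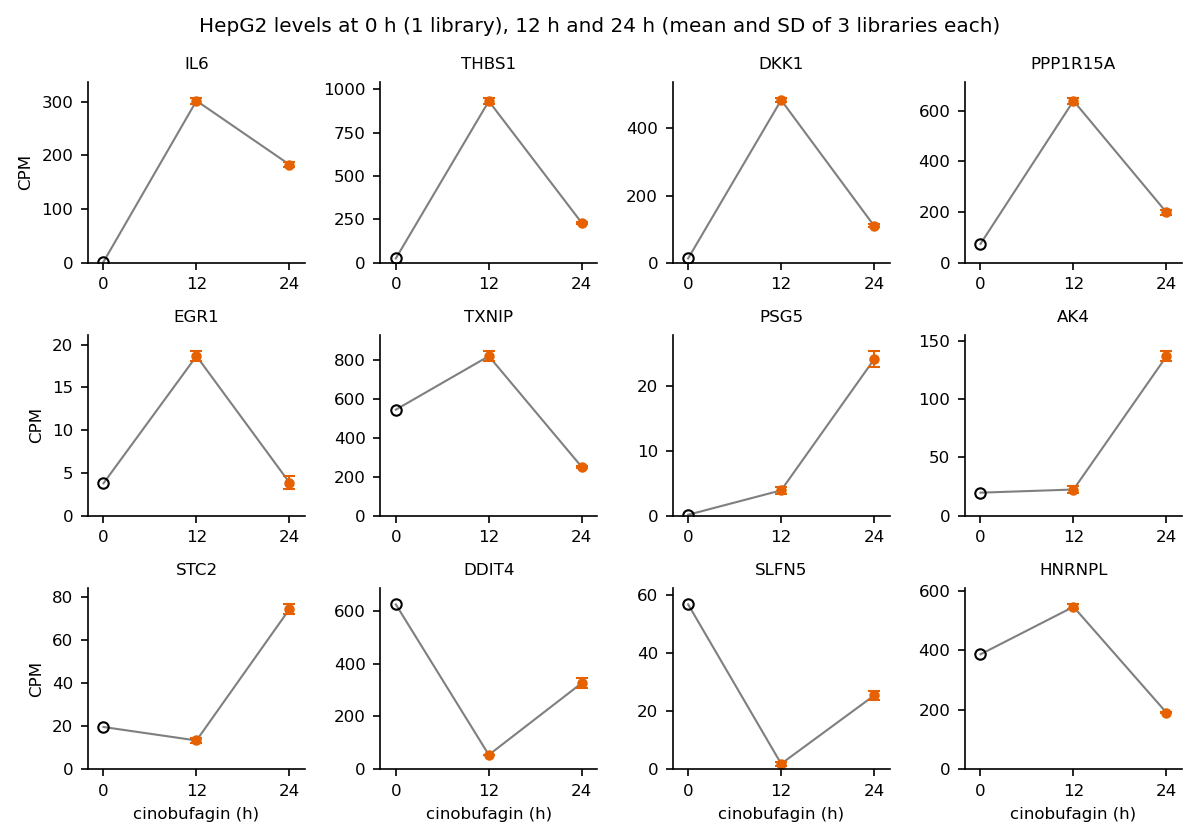
Each panel is a gene with its CPM on the vertical axis, from 0, against hours with cinobufagin on the horizontal axis; the open circle is the 1 untreated HepG2 library and filled points with bars are the mean and SD of 3 libraries. IL6, THBS1, DKK1, PPP1R15A and EGR1 are highest at 12 h, AK4, STC2 and PSG5 at 24 h, and DDIT4 and SLFN5 are lowest at 12 h.

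Huh-7 at 24 h, tested against its own 3 untreated libraries, had 6112 calls (44.8%), 2445 higher and 3667 lower. Of the 1918 genes higher in HepG2, 1092 were higher in Huh-7 too, which is 56.9% of HepG2's genes and 44.7% of Huh-7's. Of the 3038 lower in HepG2, 2185 were lower in Huh-7, which is 71.9% and 59.6%. Over all 13633 genes the 2 sets of log2 fold changes had a Pearson r of 0.661 and a Spearman rho of 0.680, given as a description, since genes are not independent. The difference of the 2 changes passed the thresholds for 3268 genes (24.0%), 1785 with a larger value in HepG2 (13.1%) and 1483 with a smaller one (10.9%). IL6 rose more in HepG2, with a difference of 3.24 ± 0.37 SE on the log2 scale (adjusted p = 3.97e-09). TFRC did too (1.99 ± 0.07 SE, adjusted p = 4.00e-22), as did TM4SF1 (2.65 ± 0.06 SE). SERTAD4 gave −0.76 ± 0.72 SE and did not pass. By gene group, 19 of 27 histone genes, each identical pair counted as 2, had a smaller change in HepG2 than in Huh-7 and none a larger one, with H2AC18 at 40.4 ± 0.534 CPM at 24 h and 17.1 CPM untreated in HepG2 and 186 ± 15.7 and 4.68 ± 0.32 CPM in Huh-7. Integrated stress response targets differed alike, with 12 of 28 smaller in HepG2 and 2 larger, and immediate early genes with 15 of 36 smaller and 4 larger. Mitotic genes differed the other way, with 13 of 37 larger in HepG2 and none smaller. Interferon response genes had 2 larger and 4 smaller of 26.

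Opposite calls were found for 87 genes: 46 higher in HepG2 and lower in Huh-7, and 41 the reverse. All passed the test of the difference too, which 2-fold calls in opposite directions from the same fit nearly ensure. HSPA8 had 445 ± 11 CPM at 24 h and 142 CPM untreated in HepG2, and 246 ± 3.50 CPM and 1261 ± 6.60 CPM in Huh-7, a difference of 4.01 ± 0.07 SE (adjusted p = 2.27e-30). SKP2, the ligase subunit that marks p27 for breakdown, had 373 ± 9.37 and 129.7 CPM in HepG2 and 45.9 ± 4.92 and 204 ± 3.85 CPM in Huh-7. GAS1, a growth arrest gene, had 59.1 ± 0.751 and 22.2 CPM in HepG2 and 0.448 ± 0.216 and 4.84 ± 1.29 CPM in Huh-7. In these 3 genes HepG2 rose and Huh-7 fell. The stress cytokine GDF15 had 28.2 ± 2.61 and 62.6 CPM in HepG2 and 65.6 ± 6.74 and 8.30 ± 1.01 CPM in Huh-7, a difference of −4.13 ± 0.14 SE (adjusted p = 5.47e-22). DDIT3 had 15 ± 0.438 and 41.7 CPM in HepG2 and 15.2 ± 0.258 and 4.35 ± 0.867 CPM in Huh-7. TXNIP, an inhibitor of thioredoxin, had 251 ± 7.10 and 547 CPM in HepG2 and 392 ± 3.12 and 104 ± 1.41 CPM in Huh-7. Here HepG2 fell and Huh-7 rose. Every such difference rests on the lone untreated HepG2 library.

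**Figure D5:**
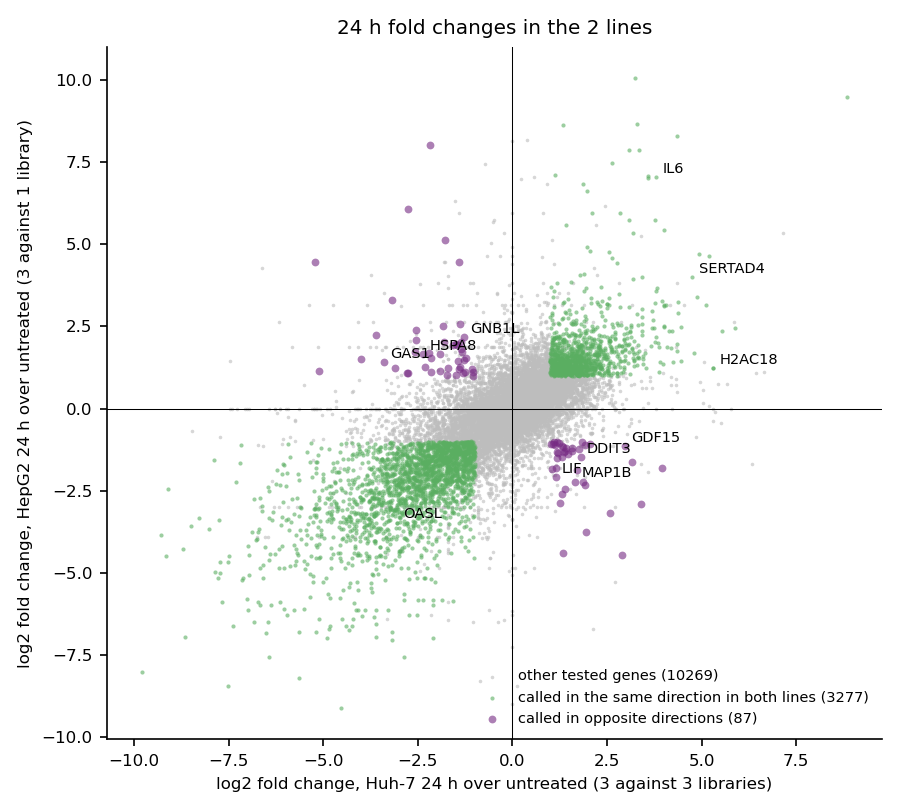
Each point is a tested gene; the vertical axis gives the log2 fold change at 24 h over untreated in HepG2 (3 against 1 library) and the horizontal axis that in Huh-7 (3 against 3). Green genes were called in the same direction in both lines and 87 purple genes in opposite directions, among them HSPA8 and GAS1 above and GDF15 and DDIT3 below.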

How the data were processed

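Per the labels, mRNA was selected by its poly(A) tail with oligo-dT before Illumina sequencing. The authors deposited, for each library, a table of gene identifiers with the gene's length, an expected count (RSEM's estimate of the reads of a gene, with shared reads divided among genes) and an FPKM value, which per the file headers scales that count by length and library size. HISAT, Bowtie2, RSEM and the hg19 build are named in the submitters' processing notes; no versions are given in the sources used. Genes not listed in a library were entered as 0. Of 16697 identifiers, 16665 were named from a RefSeq table of GRCh38.p14, which served for names and promoter sequences only, and 32 were not.

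Expected counts were rounded and tested with edgeR 4.0.16 (R 4.3.3, limma 3.58.1). filterByExpr removed 3064 genes holding 0.0231% of the counts. A quasi-likelihood model over all 16 libraries in 6 groups with TMM scaling left 10 residual degrees of freedom (biological coefficient of variation 0.0318). Genes were called at an adjusted p under 0.05 and a 2-fold change. Depth limits what low counts can show: 3 counts correspond to 0.259 CPM in the untreated library. The comparison and the gene lists were chosen with earlier results of these data known.

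The text names the 12 highest and 12 lowest fold changes (mean of the group means at least 10 CPM, groups not overlapping), the 8 largest gains and losses in CPM, 6 genes at 0 in each group, up to 5 called members per list and direction, and the leading genes of the other comparisons. Genes that were not called were named for their role in the lists. A few genes that these rules name are not reported here. Alternatives were the scaling by DESeq2's size factors, the upper quartile, the plain library size or the library median; no filter or one at 10 CPM; DESeq2 1.42.0; limma on log2(FPKM + 1); glmTreat, which tests against a 2-fold change; a replicate block; the HepG2 libraries alone; and leaving out each treated library.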

Additional observations from a re-analysis of the deposited data

Results flagged for a closer look

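The change at 24 h over untreated differed between HepG2 and Huh-7 for 3268 genes in the test of the difference itself, and the genes below lead it. Differences are HepG2 minus Huh-7 on the log2 scale and all rest on 1 untreated HepG2 library. Where a group was at or near 0 counts, the fitted size depends on the prior count and is not a bound. NOTCH3 (7.81) was at or near 0 in HepG2, with 0.198 CPM at 24 h and 0 CPM untreated, and fell in Huh-7 to 19 ± 0.362 CPM, against 254 ± 7.05 CPM. ZNF362 (6.66), VAV3 (6.06), FAM20C (5.37) and EHF (5.16) were at or near 0 in Huh-7 at 24 h, where their means were 0, 0.0345, 0.0343 and 0.0345 CPM, against 6.92, 6.77, 2.50 and 3.15 CPM untreated. In HepG2 they had 7.63, 17.3, 19.4 and 18.1 CPM at 24 h and 42, 37.5, 25.1 and 34.1 CPM untreated. IGFN1 (6.49) and HOXB9 (6.20) had 1 and 2 counts in the untreated HepG2 library. GAS1 gave 4.81.

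On the negative side, ABCB1, the drug efflux pump, gave −4.68, with 42.8 ± 2.44 CPM at 24 h and 25.5 CPM untreated in HepG2 and 1.72 ± 0.366 and 0.0283 ± 0.0491 CPM in Huh-7. GDF15 gave −4.13, the identical H2AC18 and H2AC19 −4.07, and MAP1B −3.88, the last with under 1 CPM in Huh-7. PHLDA1 gave −3.81 and the histone H2AC6 −3.56. The kinase SRC gave −3.63, with 0.427 ± 0.0554 CPM at 24 h and 2.85 CPM untreated in HepG2 and 84.5 ± 5.14 and 44.6 ± 1.28 CPM in Huh-7.

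Opposite calls in the 2 lines marked further genes. HSPA8 gave 4.01, ALPK2 3.91, SKP2 3.67, the cohesin acetyltransferase ESCO1 3.46 and GNB1L 3.46, all higher in HepG2 and lower in Huh-7. DDIT3 gave −3.28, LIF −3.23, TXNIP −3.04 and TRPS1 −2.94, all lower in HepG2 and higher in Huh-7. TRPS1 had 7 counts in the untreated HepG2 library, and its HepG2 call was lost without replicate 2 or replicate 3.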

How the results depend on the processing

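The limits are the lone untreated library, whose spread was borrowed from other groups, and a scaling that sets the typical gene to no change. No gene called in HepG2 at 24 h against untreated was called in the opposite direction under any alternative. A reversal would need a far larger shift than the scalings gave. Every alternative used the same lone untreated library, so this does not test that library's spread. Of the 4956 calls, 4701 were kept with DESeq2, 4799 with the HepG2 libraries alone, 4481 after median division, 4237 with the plain library size, 3684 with glmTreat and 3229 with limma. Genes called higher numbered 1199 with the plain library size and 826 with limma. The cause of the lower numbers was not tested, beyond glmTreat testing against 2-fold by construction. Leaving out each treated library in turn gave 4893 to 4938 calls, 1899 to 1912 higher and 2994 to 3026 lower. Leaving out each library of the other comparisons' replicated groups in turn, the difference between the lines had 3160 to 3271 calls, 1704 to 1804 higher and 1445 to 1489 lower, and 24 h against 12 h had 1565 to 1626 calls, 862 to 930 higher and 678 to 737 lower. The difference between the lines had 1749 calls with glmTreat, 995 higher and 754 lower. With limma it kept 1927 of its 3268 calls, and 11 genes were called in the opposite direction. Of the 1615 calls for 24 h against 12 h, limma kept 582. For 24 h against 12 h there were 611 calls with limma, 387 higher and 224 lower, 625 with glmTreat, 324 higher and 301 lower, and 589 higher with a filter at 10 CPM. EGR1, at 0.03 on the log2 scale and never called, turned its sign with the upper quartile (−0.11), the plain library size (−0.24), the 10 CPM filter (−9.5e-06), limma (−0.14), the replicate block (−0.041), and leaving out 1 library gave −0.11 (replicate 2) to 0.17 (replicate 1). Libraries with the same number at 12 and 24 h deviated together only weakly (correlations 0.0826, 0.0333 and 0.00334). Deviations within such small groups cannot exclude a pairing, and the lone untreated library could not be checked. The main fit used no pairing. With the number as a replicate block 4868 genes were called, 1885 higher and 2983 lower. Of 329 named genes, 3 to 6 lost their call on leaving out 1 library, 6 with the block, 15 with the upper quartile, 27 after median division, 35 with the plain library size, 37 with glmTreat and 50 with limma.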
